A study of Mus musculus with 10 samples.

Results

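The nuclear genes for proteins of the mitochondrial ribosome were followed in nascent RNA. Members were the genes named Mrpl or Mrps plus a number that lie off chromosomes X, Y and 16 and had a mean of at least 20 read pairs over the 10 samples. The rule took 74 of the 78 genes with such names, out of 24386 genes in the tables. Of the other 4, Mrpl39, Mrpl40 and Mrps6 lie on chromosome 16, and Mrpl43 was listed at 0 in all 10 samples. The whole 1429-base span of Mrpl43 is overlapped on the same strand by the annotated spans of Gm38437, Mir3084-1 and Snora19, which were also listed at 0. The member nearest to the depth minimum from inside was Mrpl53, with a mean of 48.1 read pairs, and the 3 genes on chromosome 16 had means of 513.3 to 1374.

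The mitochondrial ribosome translates the few proteins that the mitochondrial genome encodes, all of them parts of the oxidative phosphorylation complexes. Its RNA comes from mitochondrial DNA, while all of its proteins are encoded in the nucleus, made in the cytosol and imported. Doxycycline (DOX) is a tetracycline that binds bacterial ribosomes and also inhibits translation in mitochondria, so a culture induced with DOX receives an inhibitor of the organelle ribosome as well as the inducer. The comparison of DOX times with 0 h asks here whether transcription of these genes moved during the treatment.

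TT-seq, which isolates and sequences RNA labelled with 4-thiouridine (4sU) within a short pulse, was performed on TX1072, a female mouse embryonic stem cell (ESC) line from a CAST and C57BL/6 (B6) cross, genotype WT. In this line DOX switches on Xist, the RNA that silences an X chromosome, from the native gene on the B6 X chromosome. All cells grew in serum with LIF and 2i, and the 5 groups had 0, 4, 8, 12 and 24 h of DOX at 1 µg/ml before 5 min of 0.5 mM 4sU, with 2 samples per time. DOX, Xist induction and time since plating move together in this design, in a single line, and cannot be told apart: every sample with DOX also expressed Xist, and no sample had DOX without Xist.

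Total counts ran from 18809046 to 22274929 per sample, of which the members took 41881 to 51052. Xist had 31 and 32 read pairs at 0 h and 6348 to 14211 with DOX. Of 7 ESC markers, 6 were well expressed and Sox2 was listed at 0 in all samples. The summed level of the 7 was 2587 to 2845 in CPM, the counts scaled to library size, over all samples, with 2596 to 2829 CPM at 0 h and 2713 to 2715 CPM at 24 h. Marker lists of primitive endoderm, fibroblasts and 2-cell-like cells summed to at most 6.01 CPM each, and that of epiblast to 116 to 147 CPM, most of it Dnmt3b. The library of replicate 1 at 0 h stood apart, with 49.2% of its read pairs assigned to an allele against 51.7% to 52.8% in the other 9, and the 0 h pair differed most in counts (chi-square per degree of freedom 10.8, against 5.08 to 5.81 for the other pairs). Results that rest on 0 h are therefore given also without it where they moved. The study speaks of biological duplicates, and the labels do not say whether these came from separate cultures, so that p-values measure the spread between these samples, which may be technical.

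The members lie on 16 chromosomes, 11 of them on chromosome 11, and are short. Their median span was 7466 bases, from 825 bases for Mrpl53 to 121712 for Mrps28, while the median of the 14525 genes tested was 24015. Many members share a start region with a gene on the opposite strand. A start within 1000 bases, head to head, was found for 27 of the 74 (36.5%), compared with 17.1% of all genes tested. Mrpl46 and Mrps11, for a large and a small subunit protein, start 42 bases apart on opposite strands. Other partners include Sars2, the mitochondrial seryl-tRNA synthetase, next to Mrps12, Ndufb5, a complex I subunit, next to Mrpl47, and Tcp1, a cytosolic chaperonin subunit, next to Mrpl18. Of the 27 partners 25 were tested, and their changes at 24 h lay between -0.26 and 0.60 on the log2 scale, with a smallest adjusted p of 0.477 (edgeR).

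RefSeq start windows (GRCm38.p6, 250 bases before to 50 after the start) were given for 65 of the 74 members, in 71 windows. Mrps34, Mrpl15, Mrps28, Mrpl13, Mrpl38, Mrpl54, Mrps35, Mrpl19 and Mrpl4 were not matched. A set of 5 short motifs was searched on both strands, with overlaps allowed. The ETS core CCGGAAG, the core of sites for the GABP family, occurred in 35.2% of member windows, 8.86% of all 32851 windows and 15.9% of the 14134 windows of tested genes. The YY1 core AAGATGGCG occurred in 11.3%, 1.40% and 2.67%, and the NRF1 core GCGCATGCG in 8.45%, 1.75% and 3.37%. The E-box CACGTG, at 9.86% against 9.73% of windows of tested genes, and TATAAA, at 7.04% against 7.08%, had like shares by window. The 7 member windows with an E-box came from 5 of the 65 members, as overlapping windows of Mrpl2 hold the same site. These letters are matches, not shown to be bound. The median window of a member was 58.0% G or C with 21 CpG, and that of tested genes 60.3% with 19.

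The 150 bases before the start, 5′ to 3′ on the gene's own strand, are shown for the members on which the results below turn: Mrps26 and Mrpl17, below 0 h at an unadjusted p under 0.05 at 2 or more times, Mrpl36, with the highest value at 24 h, Mrps36 and Mrpl34, which have the only calls over time, and the pair Mrpl46 and Mrps11, whose windows overlap on opposite strands. Capitals mark matches to the 5 motifs in either orientation.
Mrps26 (chr2:130563607-130563756, plus strand): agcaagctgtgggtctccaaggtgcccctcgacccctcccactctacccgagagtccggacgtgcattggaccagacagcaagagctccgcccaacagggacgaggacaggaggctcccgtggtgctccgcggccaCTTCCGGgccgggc
Mrpl17 (chr7:105811088-105811237, minus strand): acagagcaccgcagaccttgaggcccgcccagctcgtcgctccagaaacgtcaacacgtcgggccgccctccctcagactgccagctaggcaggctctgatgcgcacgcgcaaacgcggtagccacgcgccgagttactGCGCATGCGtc
Mrpl36 (chr13:73330859-73331008, plus strand): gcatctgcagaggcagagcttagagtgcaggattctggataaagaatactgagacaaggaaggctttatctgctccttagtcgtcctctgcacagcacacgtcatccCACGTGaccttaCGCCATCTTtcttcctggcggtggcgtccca
Mrps36 (chr13:100744660-100744809, minus strand): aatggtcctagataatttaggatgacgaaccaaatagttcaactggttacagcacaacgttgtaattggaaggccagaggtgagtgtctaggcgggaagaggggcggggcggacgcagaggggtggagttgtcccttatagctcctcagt
Mrpl34 (chr8:71464776-71464925, plus strand): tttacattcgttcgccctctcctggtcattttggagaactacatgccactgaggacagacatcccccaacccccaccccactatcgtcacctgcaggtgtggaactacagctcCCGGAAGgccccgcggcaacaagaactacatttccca
Mrpl46 (chr7:78783090-78783239, minus strand): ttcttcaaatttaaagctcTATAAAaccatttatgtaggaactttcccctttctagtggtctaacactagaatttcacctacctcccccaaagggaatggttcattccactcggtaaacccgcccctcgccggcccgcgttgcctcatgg
Mrps11 (chr7:78782981-78783130, plus strand): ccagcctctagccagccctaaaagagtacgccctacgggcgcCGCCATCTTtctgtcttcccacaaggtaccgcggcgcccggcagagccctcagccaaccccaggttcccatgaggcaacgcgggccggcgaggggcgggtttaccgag
Within the 150 bases, an ETS core was found in 14 of the 65 members, Mrps26 and Mrpl34 among them, an NRF1 core in 5, Mrpl17 among them, and a YY1 core in 2, Mrpl36 and Mrps11. The stretch of Mrpl36 also holds an E-box, and that of Mrps36 holds no match.

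The members' levels per length at 0 h covered about an order of magnitude. They ran from 0.72 to 9.49 CPM per kb of span with a median of 2.70. The highest were Mrps2, whose protein is the homologue of bacterial S2, at 9.49 ± 0.79 CPM per kb (SD, n = 2), Mrpl15, of the L15 family, at 7.27 ± 0.59, and Mrpl51 at 7.11 ± 0.50. The lowest were Mrpl14, of the L14 family, at 0.72 ± 0.03 CPM per kb, Mrps23 at 0.72 ± 0.07 and Mrpl48 at 0.78 ± 0.06. Mrps2 exceeded Mrpl15 by more than their spread, Mrpl15 and Mrpl51 did not differ beyond it, and the 3 lowest lay within about their spread of each other. Mrps23 shares 35 bases of its span with Cuedc1 on the same strand, where reads cannot be assigned to either. Small and large subunit genes had like medians, at 2.70 CPM per kb each, for 25 and 48 genes. Averaged over the 10 samples, the median member stood at 2.63 CPM per kb, against 0.99 for all genes tested. The median was 3.91 for 72 nuclear oxidative phosphorylation genes and 34.4 for 79 genes listed as cytosolic ribosomal protein genes. That list was taken by symbol (Rpl or Rps plus a number, pseudogene names left out), and its spans reach 176681 bases. Similarly named genes such as Rpl7l1 and Rpl22l1 are in it, so some of the 79 need not be ribosomal proteins.

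Together the members held between 0.209% and 0.236% of nascent read pairs in every sample. The share was 0.226% and 0.229% at 0 h, then 0.225% and 0.217% (4 h), 0.217% and 0.222% (8 h), 0.209% and 0.221% (12 h), and last 0.236% and 0.229% (24 h). The means were lowest at 12 h (0.215% ± 0.009, SD, n = 2) and highest at 24 h (0.233% ± 0.005), and the shares at 4, 8 and 12 h were all below both 0 h shares. In the share of autosomal read pairs the 4, 8 and 12 h samples, at 0.218% to 0.236%, were also below both 0 h samples (0.237% and 0.240%). In TMM-scaled levels this did not hold. In summed TMM-scaled CPM the members stood at 2184 and 2294 CPM at 0 h, within which all samples at 4 and 8 h and 1 of 2 at 12 h and at 24 h lay. Oxidative phosphorylation genes gave 0.350% ± 0.013 at 0 h, 0.322% ± 0.017 at 12 h and 0.344% ± 0.016 at 24 h, and cytosolic ribosomal protein genes 1.05% ± 0.14, 0.899% ± 0.005 and 0.995% ± 0.105. These are shares of a library and the deposited counts carry no scaling to the labelled spike-in RNA, so that a change common to all RNA would not show, and fewer cells and less RNA per cell cannot be told apart.

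**Figure D1:**
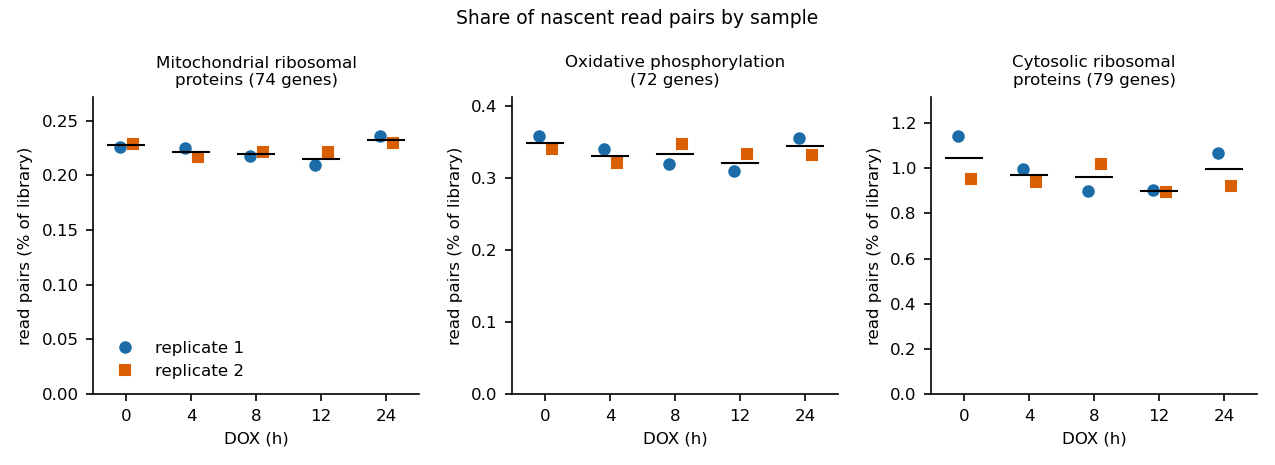
Percent of each library's read pairs (y axes, from 0) by hours of DOX. Panels show the 74 members, 72 oxidative phosphorylation genes and the 79 genes listed by symbol as cytosolic ribosomal protein genes. Each point is a sample (circle, replicate 1, square, replicate 2) and the bar is the mean of 2. The member share stays between 0.209% and 0.236%.

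No member was called in total counts at any DOX time. By edgeR's quasi-likelihood test with Benjamini-Hochberg adjustment over 14525 genes, 0 of 74 members passed an adjusted p of 0.05 at 4 h, where 0.0138% of all genes did, and none did after 8 h (0.193%), 12 h (0.95%) or 24 h (1.85%). Neither did any at 24 h against 4 h (1.44% of all genes) or for a slope over hours (3.15%). All members are autosomal, and among the 14019 autosomal genes these shares were smaller. They were 0.0071%, 0%, 0.171% and 0.549% in order of time, 0.471% at 24 h against 4 h and 1.49% for the slope. The count was also 0 in each of these comparisons by DESeq2 and by limma-voom. With the replicate number as a block it was 0 at each DOX time and for the slope, in a fit that called 0.0344%, 0.744%, 4.94% and 5.32% of all genes in order of time and 5.67% for the slope. At an unadjusted p under 0.05, edgeR gave 1, 2, 1 and 2 lower members in order of time, with 0 higher, where 2.09%, 4.06%, 11.5% and 10.3% of all genes had such a p. DESeq2 gave 0, 1, 1 and 1. At 24 h against 4 h such a p was found by edgeR for 3 members (DESeq2 3) and for 10.9% of all genes. For the slope it was found for 1 member (DESeq2 0) and for 13.2% of all genes. Over the members the lowest adjusted p was, in the same order, 1.00, 0.996, 0.293 and 0.298.

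The intervals show how large a change could have gone unseen. At each of the 4 times the 95% interval of every member, taken singly, lay within a 2-fold change in either direction. At 24 h it lay within 1.5-fold for 68 of 74 members. The median half-width at 24 h was 0.25 on the log2 scale, from 0.16 to 0.61, and it was widest for members with few reads (Spearman's rho -0.93 with the mean count, across 74 genes that share the same libraries).

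The members' medians lay close to 0. Their median log2 changes, in order of time, were -0.06, -0.05, -0.09 and 0.04, beside medians of 0.00, 0.00, 0.00 and 0.01 for all genes. Fitted values were above 0 in 23, 22, 17 and 50 of the 74. The 12 h median was -0.13 without replicate 2 of 12 h and the 24 h median was -0.01 without replicate 1 of 24 h, so the sign at 24 h rests on that library. Between 4 h and 24 h, a comparison free of the 0 h pair, the median was 0.09 with 59 members above 0, and between 0.04 and 0.14 with any library left out.

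Gene span moved with these medians. Among the autosomal genes in the shortest 25% by span, up to 10049 bases, where 54 of the members fall, the medians over the 4 times were -0.07, -0.09, -0.10 and 0.01, compared with -0.08, -0.08, -0.11 and 0.04 for those 54 members. In the longest 25% the autosomal medians were 0.04, 0.06, 0.06 and 0.01. A smooth trend over span was estimated in each sample from all genes tested and taken out as an offset (the span term). With it the member medians became -0.012, 0.013 and 6.5e-05 for the times up to 12 h and 0.038 between 4 h and 24 h. This offset removes any change shared by genes of like span, the members among them. Across members, the change at 12 h had a Spearman's rho of 0.52 with span, and that at 24 h of 0.21 (n = 74 genes in the same libraries).

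**Figure D2:**
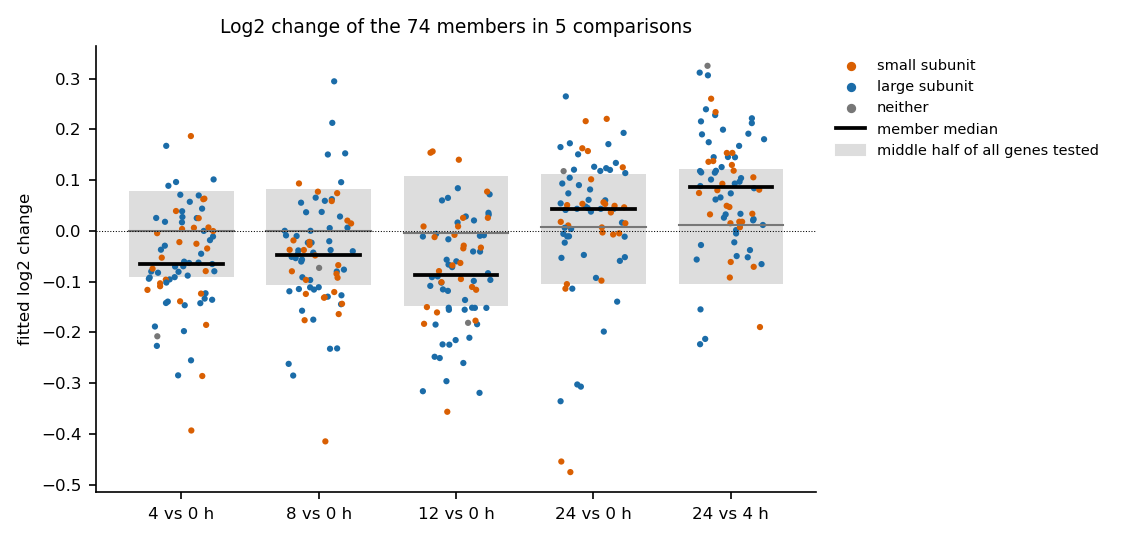
Fitted log2 change (y axis) of each of the 74 members in 5 comparisons, coloured by subunit, with the member median as a black bar. The grey box is the middle 50% of all 14525 genes and the grey line their median. Member medians are slightly under 0 at 4, 8 and 12 h and slightly over 0 at 24 h, inside the grey box throughout.

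The medians of the 2 subunits were within 0.1 of each other. The 25 small subunit genes had median log2 changes of -0.03, -0.07, -0.03 and 0.04 over the 4 times, and the 48 large subunit genes, which include Mrps30 and Mrps18a by current nomenclature, -0.07, -0.04, -0.10 and 0.04. The 44 genes for proteins with a bacterial homologue had a median of 0.05 at 24 h and the 29 for proteins particular to mitochondria 0.02. These are descriptions without a test.

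Among proteins particular to the mitochondrial small subunit, Mrps26 and Mrps34 had the lowest values at 24 h. Mrps26 stood at 7.77 and 6.95 TMM-scaled CPM at 0 h, then 6.21 and 5.00 (4 h), 5.27 and 5.78 (8 h), 6.77 and 6.5 (12 h), and last 5.97 and 4.8 (24 h). All 8 samples with DOX lay below both 0 h samples. The fitted log2 differences were -0.39 ± 0.17 (SE), -0.41 ± 0.17, -0.15 ± 0.17 and -0.45 ± 0.17 over the 4 times, with edgeR adjusted p of 1.00, 0.996, 0.770 and 0.298. Mrps26 thus did not pass the test at any time, on 95 to 168 read pairs per sample. Without replicate 1 of 0 h its differences at 4, 8 and 24 h were -0.30, -0.33 and -0.37. The start of 4930473A02Rik lies 8 bases away on the opposite strand.

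Mrps34 stood at 3.70 and 2.88 CPM at 0 h, then 2.77 and 2.63 (4 h), 3.25 and 3.79 (8 h), 2.94 and 2.85 (12 h), and last 2.21 and 2.51 (24 h). The 8 and 12 h samples overlapped the 0 h pair, and those at 4 and 24 h were below it. Its log2 difference at 24 h was -0.48 ± 0.21 (edgeR adjusted p = 0.458) on 44 to 80 read pairs, and -0.28 without replicate 1 of 0 h. Mrps33, of the same class, had one of the higher values at 24 h, 9.14 and 8.84 CPM against 8.33 and 7.09 at 0 h (log2 difference 0.22 ± 0.15, edgeR adjusted p = 0.702). Without replicate 1 of 0 h this was 0.35, and without replicate 2 of 0 h 0.097.

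Mrpl54 and Mrpl53, for large subunit proteins particular to mitochondria, and Mrpl34, of the bacterial L34 family, were the other 3 of the 5 lowest at 24 h. Mrpl54 stood at 5.97 and 5.44 CPM at 0 h, then 5.11 and 5.36 (4 h), 4.71 and 4.65 (8 h), 4.61 and 4.91 (12 h), and last 4.37 and 4.66 (24 h). Its 8 DOX samples lay below both 0 h samples, although the log2 difference at 24 h of -0.34 ± 0.16 did not pass the test (edgeR adjusted p = 0.493). Without replicate 1 of 0 h that difference was -0.26. Mrps26 and Mrpl54 were the only members, 2 of 74, whose DOX samples were all below both 0 h samples, as were 2.62% of all genes tested, and 0 members had them all above (2.03% of all genes). Mrpl53 and Mrpl34, the shortest and among the thinnest members, had log2 differences of -0.31 ± 0.29 and -0.30 ± 0.24. Without replicate 1 of 0 h that of Mrpl53 was 0.11 and that of Mrpl34 -0.12. Without replicate 1 of 24 h they were -0.49 and -0.58, and without replicate 2 of 24 h -0.15 and -0.067.

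Mrpl17, of the L17 family, was measured more deeply, with 805 to 1060 read pairs per sample. It stood at 48.6 and 48.5 CPM at 0 h, then 45.4 and 42.3 (4 h), 40.6 and 42.1 (8 h), 40.6 and 41.2 (12 h), and last 48.7 and 41.1 (24 h). The 4, 8 and 12 h samples were below both 0 h samples and the 24 h pair spread across them. The log2 differences were -0.23 ± 0.09 at 8 h (unadjusted p 0.023) and -0.25 ± 0.09 at 12 h (unadjusted p 0.016), with edgeR adjusted p of 0.996 and 0.293. With the span term they were -0.16 at both times.

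The 5 highest values at 24 h were those of Mrpl36, Mrps33, Mrps14, Mrpl24 and Mrpl45. Mrpl36, the homologue of the very small bacterial L36, stood at 5.32 and 5.49 CPM at 0 h, then 5.43 and 5.57 (4 h), 6.12 and 7.16 (8 h), 4.96 and 5.00 (12 h), and last 6.68 and 6.32 (24 h). The 8 and 24 h samples were above the 0 h pair and the 12 h samples below it, and the log2 difference at 24 h was 0.27 ± 0.15 (edgeR adjusted p = 0.633). Mrps14, of the S14 family, differed by 0.22 ± 0.12, Mrpl24, of the L24 family, by 0.19 ± 0.12, and Mrpl45, which lies at the exit of the peptide tunnel, by 0.17 ± 0.10, with edgeR adjusted p of 0.624, 0.653 and 0.632. Without replicate 1 of 0 h Mrps14 differed by 0.086 and Mrpl45 by 0.11, and without replicate 2 of 0 h Mrps14 by 0.35.

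**Figure D3:**
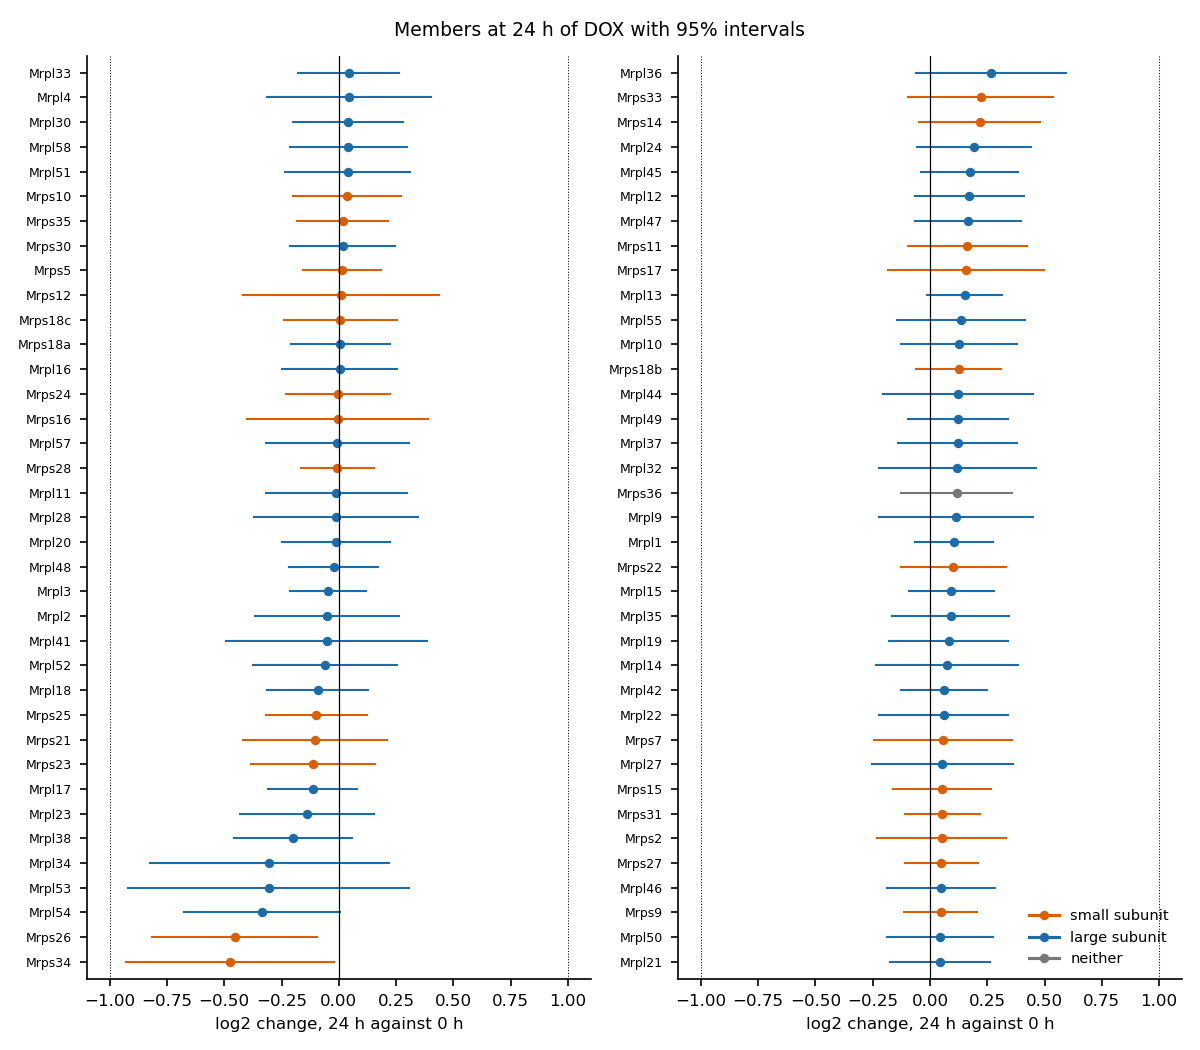
Fitted log2 change at 24 h against 0 h (x axis) of each of the 74 members with its 95% interval, ordered by value from the lowest (bottom left) to the highest (top right) and coloured by subunit, dotted lines marking a 2-fold change. All intervals stay within the dotted lines, and all but those of Mrps26 and Mrps34 cross 0.

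Between 4 h and 24 h 3 members had an unadjusted p under 0.05, all higher at 24 h, where 10.9% of all genes had such a p. They are named after their values were seen: Mrps36 (0.33 ± 0.12, edgeR adjusted p = 0.275), Mrpl12 (0.31 ± 0.11, edgeR adjusted p = 0.304), of the L7/L12 stalk family, and Mrps18b (0.23 ± 0.09, edgeR adjusted p = 0.317). Mrps36, despite its symbol, is now counted as a subunit of the 2-oxoglutarate dehydrogenase complex and not of the ribosome. It stood at 24.8 and 23.0 CPM at 0 h, then 18.7 and 22.7 (4 h), 21.1 and 24.3 (8 h), 21.8 and 20.4 (12 h), and last 25.4 and 26.5 (24 h). Both 24 h samples were above all others. With the replicate number as a block Mrps36 was called higher at 24 h than at 4 h (log2 difference 0.33 ± 0.10, edgeR adjusted p = 0.049), the only member in any comparison of total counts, in a fit that called 4.87% of all genes. It was called in 1 of 19 alternative fits, with adjusted p from 0.049 to 0.686 over the 19, and the block with the span term gave 0.14.

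**Figure D4:**
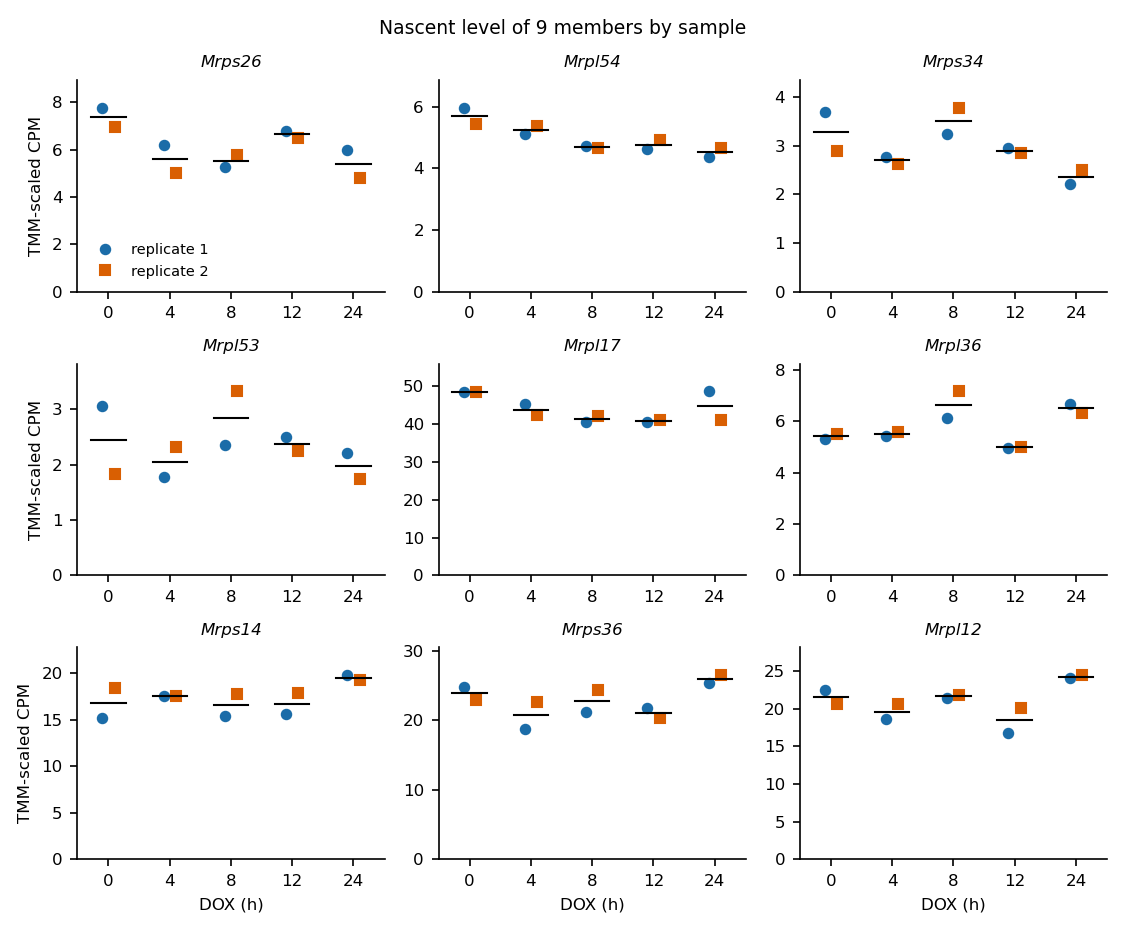
TMM-scaled CPM (y axes, from 0) by hours of DOX for 9 members, each point a sample (circle, replicate 1, square, replicate 2) and each bar the mean of 2. Mrps26 and Mrpl54 are below both 0 h samples in all DOX samples, Mrps36 is highest at 24 h, and the remaining members overlap their 0 h values at 1 or more times.

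Of the other genes of mitochondrial translation and its ribosome assembly, 1 was called. None of 9 further tested genes (Dap3, Ptcd3, Chchd1, Aurkaip1, Gadd45gip1, the 3 genes on chromosome 16 and Oxa1l, which inserts new proteins into the inner membrane) passed the edgeR test in any comparison, nor did any of 18 translation factor and tRNA modification genes or of 17 mitochondrial aminoacyl-tRNA synthetases, and DESeq2 and limma-voom also called 0. Their median log2 changes at 24 h were -0.04, 0.03 and 0.04. At an unadjusted p under 0.05 these lists had 0, 2 and 0 members at 24 h, all higher, where 10.3% of all genes had such a p. Of 27 assembly factors 1 fell, the X-linked Trmt2b, called at 12 h and for the slope. At 12 h 138 of all 14525 genes tested were called, only 24 of them autosomal. For the slope 458 were called, 209 of them autosomal. Trmt2b, an X-linked tRNA methyltransferase gene, stood at 36.0 and 33.2 CPM at 0 h, 26.1 and 21.7 after 12 h, then 26.4 and 24.0 after 24 h, a log2 change of -0.53 ± 0.11 at 12 h (edgeR adjusted p = 0.033), and it passed also for the slope over hours (-0.51 ± 0.12 per 24 h, edgeR adjusted p = 0.019). DESeq2 and limma-voom called it as the only assembly gene in both, and also at 24 h (-0.46 ± 0.11, edgeR adjusted p = 0.053, DESeq2 0.027, limma-voom 0.049). The 12 h call was lost without replicate 1 of 0 h (edgeR adjusted p = 0.219) or either 12 h library (0.060 and 0.291), and that for the slope without replicate 1 of 0 h (0.071) or replicate 2 of 24 h (0.072). With the replicate block it was called at 12 h, 24 h, 24 h against 4 h and for the slope. Mettl15, a mitochondrial rRNA methyltransferase gene, was called higher with the block at 12 h (0.26 ± 0.07, edgeR adjusted p = 0.019), where 4.94% of all genes were called.

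Regulators were not called with or without the replicate block, and stress genes were called only with it. Of 13 tested genes of mitochondrial transcription and its nuclear regulators (among them Tfam, Polrmt, Nrf1 and Gabpa) 0 were called by edgeR in any comparison, with changes at 24 h from -0.16 to 0.23. Of 22 tested genes of the mitochondrial stress response and ATF4 targets 0 were called in any comparison of the main fit. At 24 h their median was -0.02 and their range -0.50 to 0.15. An unadjusted p under 0.05 (edgeR) was found at 24 h for 10.3% of all genes and for 2 of the 22, both lower. Both are named after their values were seen, Ddit4, a stress-induced inhibitor of mTORC1 signalling, at -0.50 ± 0.23, and Phgdh, the first enzyme of serine synthesis, at -0.18 ± 0.08. Atf4, the central factor, differed by 0.06 ± 0.10 and Asns, asparagine synthetase, by 0.13 ± 0.08 at 24 h. The replicate block called both Ddit4 (-0.68 ± 0.19, edgeR adjusted p = 0.027) and Phgdh (-0.23 ± 0.07, edgeR adjusted p = 0.048) lower at 24 h than at 4 h. It called Ddit4 also for the slope (edgeR adjusted p = 0.041). Of all genes the block called 4.87% at 24 h against 4 h and 5.67% for the slope. Cytosolic ribosomal protein genes had 0 of 79 called in any comparison and medians of -0.18 at 12 h and -0.08 at 24 h, the former with an unadjusted p under 0.05 for 20 lower genes and 1 higher. Oxidative phosphorylation genes had 0 of 72 called and medians of -0.11 and -0.02, with 5 lower and 1 higher at an unadjusted p under 0.05 after 12 h. Of all genes tested 11.5% had such a p at 12 h. DESeq2 and limma-voom called 0 in each of these 4 lists as well. With the block, which called 4.94% of all genes at 12 h, 4 of the 79 (Rps15, Rps16, Rps21 and Rpl22l1) were lower at that time. Of the 72 oxidative phosphorylation genes 1, Cox7b2, was called higher at 12 h. Between 4 h and 24 h, where the block called 4.87% of all genes, Rpl7l1 was called higher at 24 h.

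Reads that carry a strain difference gave a second readout of the same genes. The B6 share, B6 reads over B6 plus Cast reads, was tested for the 71 members with at least 10 such reads in every sample, all but Mrpl53, Mrps26 and Mrpl22. Over all members pooled the share was 52.4% to 53.2% in the 10 samples. The median member had a mean share of 0.526, and 46 of 71 lay between 0.45 and 0.55. By edgeR the mean B6 to Cast ratio over all times differed from 1 for 45 members, where 74.7% of 11906 genes did. It was higher for 37, in a background of 49.2%, and lower for 8, in a background of 25.5%. DESeq2 called 35.

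The strongest allelic skew was that of Mrps36. Its B6 share was 0.108 and 0.122 at 0 h, then 0.20 and 0.137 (4 h), 0.210 and 0.075 (8 h), 0.120 and 0.159 (12 h), and last 0.107 and 0.087 (24 h), on 215 to 369 allelic reads per sample. The B6 allele thus gave a small minority of reads in every sample, a log2 ratio of -2.74 ± 0.08. The other low shares were far closer to even, for Mrps15, of the S15 family, at 0.438 and Mrpl23, of the L23 family, at 0.442. At the other end Mrps17, of the S17 family, had a mean share of 0.758, from 0.678 to 0.809 (log2 ratio 1.65 ± 0.10), followed by Mrpl51 at 0.642 and Mrps2 at 0.611. A preference of the alignment for one strain's reads was not tested here.

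**Figure D5:**
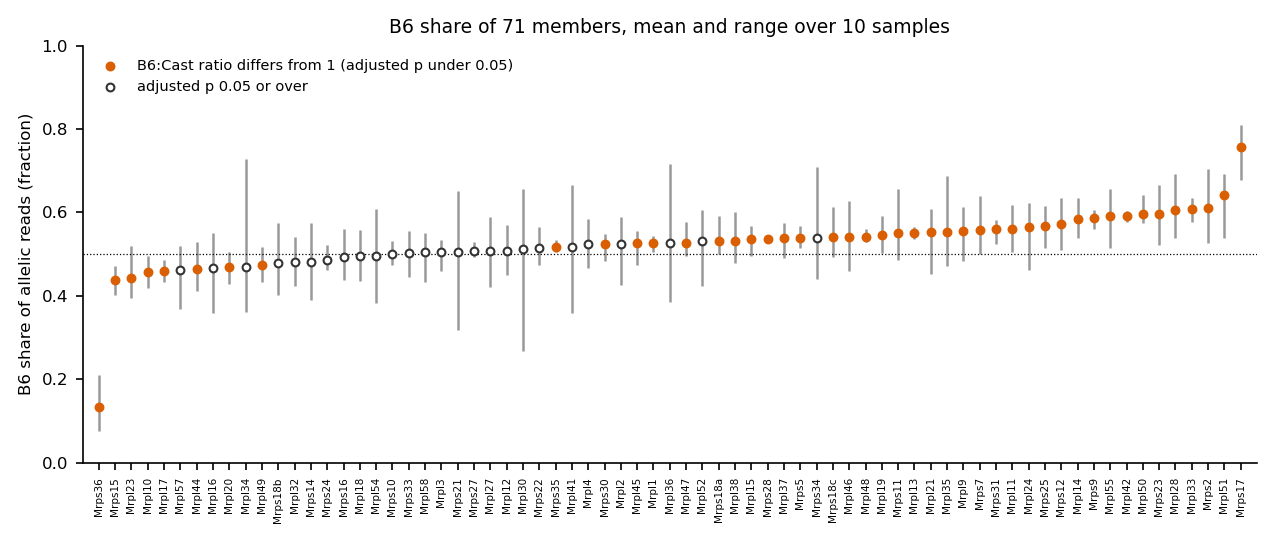
B6 share of allelic reads (y axis, fraction from 0 to 1) for the 71 members tested, ordered by their mean over 10 samples (point), with the lowest and highest sample as a line. Filled points passed the test of the mean B6 to Cast ratio against 1. Mrps36 lies apart at 0.133 and Mrps17 at 0.758.

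The change in B6 share with DOX was called for 1 member. By edgeR 0 of 71 were called at 4 h (0.361% of all genes), 8 h (1.66%) and 12 h (2.15%), and 1 at 24 h (2.64%). Among the 11543 autosomal genes tested, the like background for these members, the shares were 0.0087%, 0.052%, 0.156% and 0.355% in order of time. At an unadjusted p under 0.05 edgeR gave 4, 2, 2 and 2 members, where 5.00%, 5.90%, 7.38% and 8.20% of all 11906 genes had such a p. DESeq2 called 0 members at each time, with 0, 0, 0 and 1 at such a p. The 1 call was Mrpl34, whose share was 0.360 and 0.396 at 0 h, then 0.444 and 0.535 (4 h), 0.392 and 0.417 (8 h), 0.370 and 0.457 (12 h), and last 0.60 and 0.727 (24 h). Both 24 h samples were above all others, at a log2 change in the ratio of 1.65 ± 0.49 (edgeR adjusted p = 0.035). The 24 h values rest on 24 B6 reads against 16 Cast reads and 24 against 9. The call was lost with any 0 h or 24 h library left out (adjusted p from 0.053 to 0.495), by DESeq2 (adjusted p = 0.860) and when adjusted over autosomal genes alone (adjusted p = 0.347).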

How the data were processed

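TT-seq counts of 10 samples were analysed. The authors trimmed reads with Cutadapt, aligned them to mm10 with strain differences masked, kept unique alignments, split read pairs by allele with SNPsplit and counted them by strand with featureCounts 1.5.1 over whole gene spans, introns included, so reads shared with identical gene copies are lost. The study's methods name STAR as the aligner, and the submitters' processing notes name TopHat2 2.1.0. The deposited values are raw counts of all, B6 and Cast read pairs per gene and, as a fraction, the B6 share, recomputed here from the counts. No spike-in scaling or duplicate removal is stated for them.

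Genes past filterByExpr were fitted with edgeR 4.0.16 (R 4.3.3, TMM, quasi-likelihood, time as a factor, all 10 samples, two-sided). The B6 share was fitted on 20 columns with an intercept per sample and allele-by-time terms. Tests were called at a Benjamini-Hochberg adjusted p under 0.05 over all genes, and intervals use the fitted SE. CPM per kb divides TMM-scaled CPM by the deposited span. DESeq2 1.42.0 and limma-voom (limma 3.58.1), other scalings and filters, a span offset, a replicate block and leaving out each library were alternatives. The scripts were tested on simulated data. Replicate numbers come from the sample titles. The difference between replicates correlated across times over all genes (Pearson's r 0.18 to 0.41 in the 10 pairs of times), so the numbers may pair the samples. Over the members r was -0.17 to 0.28, and for the B6 share over all genes 0.0004 to 0.032. The main fit had no replicate block and so ignored any such pairing, and the fit with the block was an alternative.

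Named genes were those past an adjusted p of 0.05 in total counts, the 5 highest and 5 lowest changes at 24 h, members at an unadjusted p under 0.05 in the same direction at 2 or more times, the 3 highest and lowest by level per kb and by B6 share, the genes at the depth minimum and called genes of the related lists. The members and lists were chosen with earlier results of these data known.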

Additional observations from a re-analysis of the deposited data

How the results depend on the processing

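The count of 0 members called in total counts held for each DOX time and for the slope over hours under all 19 alternatives, each left-out library included. At 24 h against 4 h it was 1 with the replicate block (Mrps36) and 0 in the other 18, and the block changed no other call of a member in total counts. In the related lists it added calls for Trmt2b, Mettl15, Ddit4, Phgdh, Cox7b2 and 5 genes of the cytosolic ribosomal protein list. Medians of the members moved more than their replicate spread of 0.044 in a few cases. With the span offset they were -0.012, 0.013 and 6.5e-05 for 4, 8 and 12 h of DOX and 0.038 for 24 h against 4 h, and with the span offset and the replicate block together -0.012, 0.010, -0.00083 and 0.037. Scaling by library size only gave -0.14 at 12 h. With 1 library left out the median ran from -0.13 to -0.050 at 12 h, from -0.0081 to 0.086 at 24 h, from 0.042 to 0.14 at 24 h against 4 h and from -0.016 to 0.072 for the slope. Mrpl53 at 24 h turned from -0.31 to 0.11 without replicate 1 of 0 h and ran from -0.64 to 0.11 over left-out libraries, and the other 9 of the 5 highest and 5 lowest changes at 24 h, Mrps26 at 4 and 8 h and Mrpl17 at 8 and 12 h kept their sign under the alternatives run. Other named changes, except those of Mrps36, Mrpl34 and Trmt2b, were not recomputed under each alternative. The 45 members with a skewed mean allele ratio became 35 to 45 under other fits and 42 to 45 with 1 library left out. The 1 change in B6 share at 24 h (Mrpl34) became 0 with DESeq2, 0 when adjusted over autosomal genes only, 0 with at least 50 allelic reads, where Mrpl34 was not tested, and 0 to 1 with 1 library left out. A fit that leaves a time with 1 sample assumes that it varies like the others. Depth limits the members under about 100 read pairs, whose intervals are the widest.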
